A study of Mus musculus with 4 samples.

Results

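RNA of the mouse cochleovestibular ganglion (CVG), the source of the hearing and balance neurons of the inner ear, was compared between Pou4f1KO and control at embryonic day 11.5. The members were all genes that reached 1 TPM, a transcript level scaled for gene length and library total, in either library, after rows of one symbol were summed, which gave 14750 of 25239 gene symbols. The study held 4 libraries, 1 for each genotype label: Pou4f1KO, read as a knockout of Pou4f1, DKO, read as a knockout of both Pou4f1 and Isl1, Isl1CKO, read as a conditional knockout of Isl1, and control. The labels give no strain, no alleles, no Cre driver for Isl1CKO and no genotype for the control beyond that word, and they do not say how many embryos went into a library. The libraries labelled DKO and Isl1CKO form a second pair that differs by the Pou4f1 part of the label and shares no library with the first, and its values are given beside the lists and most of the genes named. There was 1 library per genotype, so each difference describes these libraries, has no replicate check and carries no p-value.

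POU4F1, also called BRN3A, is a POU-homeodomain transcription factor that sensory neurons switch on as they leave the cell cycle. In sensory ganglia it works beside the LIM-homeodomain factor ISL1, and in trigeminal and dorsal root ganglia of the mouse the loss of either leads to altered subtype genes and to ectopic expression of genes of central neurons. At this stage the CVG is a cluster of young neurons that have left the otic vesicle, an epithelium that lies against the hindbrain. A dissected ganglion can therefore carry otic epithelium, neural tube, glia, mesenchyme and blood cells.

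The libraries were of similar depth. Aligned sequence came to 16.6 gigabases in Pou4f1KO and 16.6 in control, with 16.1 in DKO and 13.6 in Isl1CKO. Mean read depth at a level of 1 TPM lay between 4.95 and 5.93, and 14284 to 14412 genes reached that level in a library. The labelled cell type is CVG neurons. Neuronal genes were abundant in the compared pair, with Tubb3, a neuronal tubulin, at 2930 TPM in Pou4f1KO and 2636 TPM in control. Markers of other cells were present as well, such as the glial factor Sox10 at 159 TPM in Pou4f1KO and 160 TPM in control and the epithelial adhesion gene Epcam at 20.2 TPM in Pou4f1KO and 87.8 TPM in control. In bulk RNA like this, fewer cells of a type and less RNA per cell cannot be told apart.

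Differences are log2 ratios of (TPM + 1), on which the change of a weakly expressed gene appears smaller than it is. Where a pair of log2 ratios stands in brackets, the first is Pou4f1KO over control and the second DKO over Isl1CKO. A gene is called higher or lower only from 2-fold on this scale, a log2 ratio of 1 or more in size. By that rule 147 genes were higher in Pou4f1KO than in control (0.997% of those compared) and 260 were lower (1.76%), and the median log2 ratio of all genes was 0.02. In the second pair 111 of the same genes were higher in DKO than in Isl1CKO (0.753%) and 174 were lower (1.18%), with a median of 0.01. Of the 260 genes that were lower in Pou4f1KO, 107 were lower in DKO too, which is 41.2% of the first list and 61.5% of the second. Of the 147 that were higher in Pou4f1KO, 30 were higher in DKO, which is 20.4% of the first list and 27.0% of the second. Genes close to the threshold were Npy and Grin2d, both at 1.01 just inside it, and Peg10 at 0.998 and Gjd2 at 0.99 just outside it. On the lower side Unc5b at -1.005 and Frrs1 at -1.01 were just inside, and Wnt7b and Galm, both at -0.99, were just outside.

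**Figure D1:**
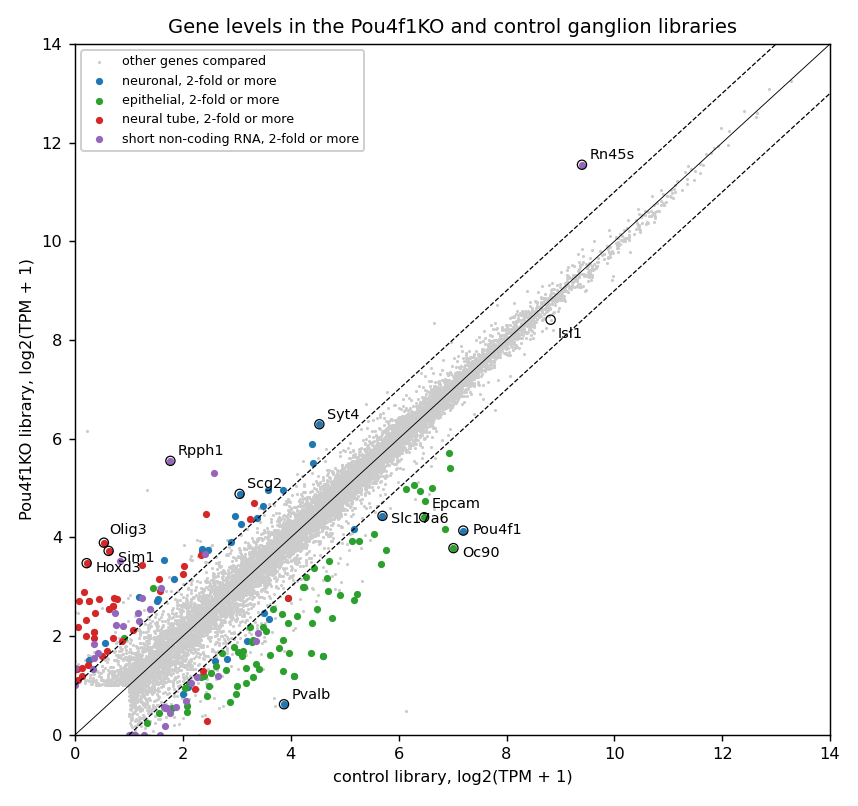
Level of each of the 14750 genes in the Pou4f1KO library (vertical axis) and the control library (horizontal axis), as log2(TPM + 1), with the solid line at equal levels and dashed lines at 2-fold. Coloured points are listed genes past 2-fold, rings mark the named genes, and the 147 genes that were higher and 260 that were lower lie outside the dashed lines; 2 grey points far from the line are the beta-globin rows Hbb-b1 and Hbb-bs, which overlap each other.

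The targeted gene checked the labels. Pou4f1 lies on the minus strand of chromosome 14 from 104462325 to 104467999 (mm10) and has up to 3 exons in GENCODE M21. It stood at 16.6 TPM in Pou4f1KO and 146 TPM in control, a log2 ratio of -3.06. In the second pair Pou4f1 stood at 14.6 TPM in DKO and 188 TPM in Isl1CKO, a log2 ratio of -3.60. The gene was thus low in both libraries whose label names it and high in the other two. The remaining Pou4f1 signal was not at the detection limit, since its mean coverage was 95.9 in Pou4f1KO and 865 in control. Isl1 stood at 340 TPM in Pou4f1KO and 450 TPM in control (log2 ratio -0.41), and at 579 TPM in the library labelled DKO and 854 TPM in the library labelled Isl1CKO (-0.56). Isl1 RNA was therefore not low in the libraries labelled for its loss, and its level does not check those labels. Isl2, the LIM-homeodomain paralog of Isl1, stood at 154 TPM in Pou4f1KO and 268 TPM in control (-0.80), and at 111 TPM in DKO and 241 TPM in Isl1CKO (-1.11).

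Both paralogs of Pou4f1 were lower as well. Pou4f3, which encodes the POU-homeodomain factor of hair cells, stood at 1.29 TPM in Pou4f1KO and 15.7 TPM in control, and at 1.31 TPM in DKO and 16.7 TPM in Isl1CKO, with log2 ratios of -2.86 and -2.94. Pou4f2, best known from retinal ganglion cells, stood at 0.781 TPM in Pou4f1KO and 2.99 TPM in control, and at 0.0605 TPM in DKO and 3.93 TPM in Isl1CKO, with log2 ratios of -1.16 and -2.22. Of these paralogs, Pou4f3 differed by nearly the same amount in both pairs. A long non-coding RNA gene of the same region of chromosome 14, D130009I18Rik (mm10 chromosome 14, 104639144 to 104966783, plus strand), was picked out after its values were seen. D130009I18Rik stood at 0.490 TPM in Pou4f1KO and 12.1 TPM in control, and at 0.764 TPM in DKO and 16.4 TPM in Isl1CKO, with log2 ratios of -3.14 and -3.30. Protein-coding genes of the same stretch of chromosome 14 did not share this: Rbm26 had a log2 ratio of 0.12, Ndfip2 of 0.19, Rnf219 of 0.29, Slain1 of 0.10 and Ednrb of 0.42, and Scel was higher at 1.05.

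The promoters of 3 genes that were lower in both pairs are shown because each holds the AT-rich hexamer ATTAAT, the core of the known POU4F1 recognition sequence. Each sequence is the 250 bases before an annotated RefSeq start in GRCm38.p6, read on the gene's strand, with the hexamer in capitals: Pvalb at chr15:78206401-78206650 (minus), Slc17a6 at chr7:51624387-51624636 (plus) and D130009I18Rik at chr14:104638894-104639143 (plus).
Pvalb: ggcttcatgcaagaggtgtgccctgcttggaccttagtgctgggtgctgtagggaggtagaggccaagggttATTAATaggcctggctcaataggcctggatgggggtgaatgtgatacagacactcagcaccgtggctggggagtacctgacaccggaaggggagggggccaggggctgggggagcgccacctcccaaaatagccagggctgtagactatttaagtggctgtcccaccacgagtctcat
Slc17a6: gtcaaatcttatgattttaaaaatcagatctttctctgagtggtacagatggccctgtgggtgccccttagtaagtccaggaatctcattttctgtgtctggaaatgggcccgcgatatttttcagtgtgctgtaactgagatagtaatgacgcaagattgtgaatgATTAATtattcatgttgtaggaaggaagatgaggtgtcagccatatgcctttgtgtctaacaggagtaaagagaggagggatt
D130009I18Rik: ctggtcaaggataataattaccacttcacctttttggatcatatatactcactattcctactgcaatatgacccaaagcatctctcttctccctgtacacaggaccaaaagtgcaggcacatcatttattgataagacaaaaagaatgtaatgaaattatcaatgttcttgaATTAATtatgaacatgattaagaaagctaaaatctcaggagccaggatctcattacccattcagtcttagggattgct
The hexamer reads the same on both strands and begins 178 bases before the Pvalb start, 83 bases before that of Slc17a6 and 78 bases before that of D130009I18Rik. Among the genes that were lower in both pairs, 6 of 103 promoters held it (5.83%), for Cpne4, Hrk and Taar5 besides those printed. The share was 1.96% of the promoters of all genes compared and 4.39% of all 32851 promoters of the table. A second motif searched on both strands, TAATNATT, stood in 5 of the 103 promoters (4.85%), in 1.31% of those of all genes compared and in 3.11% of all promoters. Among the genes that were higher in both pairs each motif stood in 1 of 19 promoters (5.26%), a share close to that of the lower genes. A match to these letters is a description of the window and not a binding site.

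Neuronal genes were described with 8 lists that hold 356 genes, of which 308 were compared. In Pou4f1KO 22 of the 308 were higher and 13 were lower, beside 0.997% higher and 1.76% lower over all genes compared. The median log2 ratio of the 308 was 0.26. In the second pair 8 were higher and 20 were lower, with a median of 0.03. The 13 neuronal genes lower in Pou4f1KO had ratios below 0 in the second pair without exception, and 9 of them were past 2-fold there. Both counts include Pou4f1, the gene that the labels target, and its paralogs Pou4f2 and Pou4f3. Of the 22 neuronal genes higher in Pou4f1KO, 18 had ratios above 0 in the second pair and 7 were past 2-fold. Without the genes that also stand on an epithelial or neural tube list, 21 of 302 were higher and 11 were lower, with the same median of 0.26.

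Markers of other cells moved beside these neuronal genes. Of 78 neural tube genes, 37 were higher in Pou4f1KO and their summed level over every listed gene in the tables was 1649 TPM in Pou4f1KO and 1104 TPM in control, and 1498 TPM in DKO and 1122 TPM in Isl1CKO. A few abundant members weigh on this sum, such as Rgs4, a regulator of G-protein signalling, at 419 TPM in Pou4f1KO and 227 TPM in control, and at 453 TPM in DKO and 225 TPM in Isl1CKO (0.88 and 1.01). Of 143 epithelial genes, 74 were lower and the summed level was 2765 TPM in Pou4f1KO and 4184 TPM in control, and 2512 TPM in DKO and 3167 TPM in Isl1CKO. No compared marker of either class was at 0 in either library, but the filter left out the weakest. Some listed markers that were not compared were at 0, such as the epithelial gene Ehf and the neural tube gene Nkx2-9 in both Pou4f1KO and control. The part of these cells in the neuronal differences was not tested.

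The neuronal genes lower in both pairs include identity and transmission genes of sensory neurons. Pvalb, the calcium-binding protein parvalbumin found in proprioceptive and other fast sensory neurons, stood at 0.535 TPM in Pou4f1KO and 13.7 TPM in control, and at 2.30 TPM in DKO and 12.9 TPM in Isl1CKO (log2 ratios -3.26 and -2.07). Slc17a6, the vesicular glutamate transporter that loads synaptic vesicles in sensory neurons, stood at 20.6 TPM in Pou4f1KO and 51.0 TPM in control, and at 17.8 TPM in DKO and 51.6 TPM in Isl1CKO (-1.26 and -1.48). Both genes thus had nearly the same level in control and Isl1CKO, and both were low in the libraries labelled for Pou4f1. Kcna1, a potassium channel subunit of fast-firing neurons, stood at 2.73 TPM in Pou4f1KO and 8.14 TPM in control, and at 1.72 TPM in DKO and 7.44 TPM in Isl1CKO (-1.29 and -1.63). It was 1 of 2 of the 56 ion channel genes past 2-fold, the other being Kcnd2, which was higher. These counts, 1 lower and 1 higher, stand beside 1.76% lower and 0.997% higher over all genes compared.

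Somatosensory ganglion genes were mostly within 2-fold. Of the 24 compared, 4 were lower and none was higher, beside 1.76% lower and 0.997% higher over all genes compared. The median log2 ratio was -0.03, against 5 lower and a median of -0.07 in the second pair. Of the 24, 3 reached 1 TPM only in control, so their presence among the compared genes rests on the library in which they are high. Runx1, a runt-domain factor of nociceptive neurons, stood at 1.92 TPM in Pou4f1KO and 6.08 TPM in control, and at 1.06 TPM in DKO and 4.27 TPM in Isl1CKO (-1.28 and -1.36). Avil, which encodes the actin-binding protein advillin of sensory neurons, stood at 0.970 TPM in Pou4f1KO and 3.26 TPM in control, and at 0.934 TPM in DKO and 4.19 TPM in Isl1CKO (-1.11 and -1.42). Scn10a, a nociceptor sodium channel gene, completed the 4 with Pvalb, at 1.83 TPM in Pou4f1KO and 5.07 TPM in control (-1.10), but its ratio in the second pair was -0.56. Sncg, which encodes gamma-synuclein and was by far more abundant, stood at 595 TPM in Pou4f1KO and 995 TPM in control (-0.74), and at 404 TPM in DKO and 941 TPM in Isl1CKO (-1.22).

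Growth factor and receptor genes showed few differences of this size. Of 19 compared, 2 were lower: Pappa2, a protease that releases insulin-like growth factors from their binding proteins, and Ntf3, the ligand neurotrophin 3. Pappa2 stood at 2.03 TPM in Pou4f1KO and 23.3 TPM in control, and at 2.44 TPM in DKO and 22.2 TPM in Isl1CKO (-3.01 and -2.75). Ntf3 stood at 4.06 TPM in Pou4f1KO and 11.1 TPM in control, and at 3.84 TPM in DKO and 6.54 TPM in Isl1CKO (-1.26 and -0.64). Pappa2 also stands on the list of otic secreted genes described further on. Ntrk2, the receptor for brain-derived neurotrophic factor, did not pass 2-fold, at 57.2 TPM in Pou4f1KO and 72.6 TPM in control (-0.34). In the second pair Ntrk2 was further apart, at 27.5 TPM in DKO and 55.2 TPM in Isl1CKO (-0.98).

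Of the 22 neuronal genes that were higher, 10 stood on the lists of transmitter receptor and vesicle genes and of neuropeptide and dense-core genes. Of 50 transmitter receptor and vesicle genes 6 were higher and Slc17a6 alone was lower, with a median log2 ratio of 0.42, against 3 higher, 1 lower and a median of 0.13 in the second pair. Of 19 neuropeptide and dense-core vesicle genes 4 were higher and none was lower, with a median of 0.33, but in the second pair 3 were higher, 3 were lower and the median was 0.10. Syt4, a synaptotagmin of dense-core vesicles, stood at 77.5 TPM in Pou4f1KO and 22.1 TPM in control, and at 60.4 TPM in DKO and 17.8 TPM in Isl1CKO (1.76 and 1.71). Scg2, the dense-core granule protein secretogranin 2, stood at 28.5 TPM in Pou4f1KO and 7.28 TPM in control, and at 35.6 TPM in DKO and 9.92 TPM in Isl1CKO (1.83 and 1.75). Both vesicle genes differed by nearly the same amount in both pairs. Npy, the neuropeptide Y precursor, stood at 13.96 TPM in Pou4f1KO and 6.44 TPM in control, and at 15.7 TPM in DKO and 6.62 TPM in Isl1CKO (1.01 and 1.13). Tac1, the substance P precursor, stood at 18.3 TPM in Pou4f1KO and 7.43 TPM in control, and at 15.6 TPM in DKO and 7.50 TPM in Isl1CKO (1.20 and 0.97). Nxph4, a neurexophilin, differed in the first pair, at 10.7 TPM in Pou4f1KO and 2.13 TPM in control (1.90), but was high in both libraries of the second, at 16.4 TPM in DKO and 12.4 TPM in Isl1CKO (0.38).

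The glutamate and glycine receptor genes that were higher in both pairs were Grin3a, Grik1 and Glra2. Grin3a, an NMDA receptor subunit, is counted here with the row of Ppp3r2 that overlaps it, and the sum was 59.7 TPM in Pou4f1KO and 20.5 TPM in control, and 26.3 TPM in DKO and 7.36 TPM in Isl1CKO, with a log2 ratio of 1.497 in the first pair. Grik1, a kainate receptor subunit, stood at 12.4 TPM in Pou4f1KO and 4.53 TPM in control, and at 8.32 TPM in DKO and 3.27 TPM in Isl1CKO (1.28 and 1.13). Glra2, a glycine receptor subunit, stood at 5.69 TPM in Pou4f1KO and 1.88 TPM in control, and at 6.63 TPM in DKO and 1.76 TPM in Isl1CKO (1.21 and 1.47). Kcnd2, a subunit of A-type potassium channels, stood at 5.96 TPM in Pou4f1KO and 1.26 TPM in control, and at 5.09 TPM in DKO and 1.23 TPM in Isl1CKO (1.62 and 1.45). These 4 genes, with Syt4, Scg2 and Npy, are the 7 neuronal genes that were higher in both pairs.

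**Figure D2:**
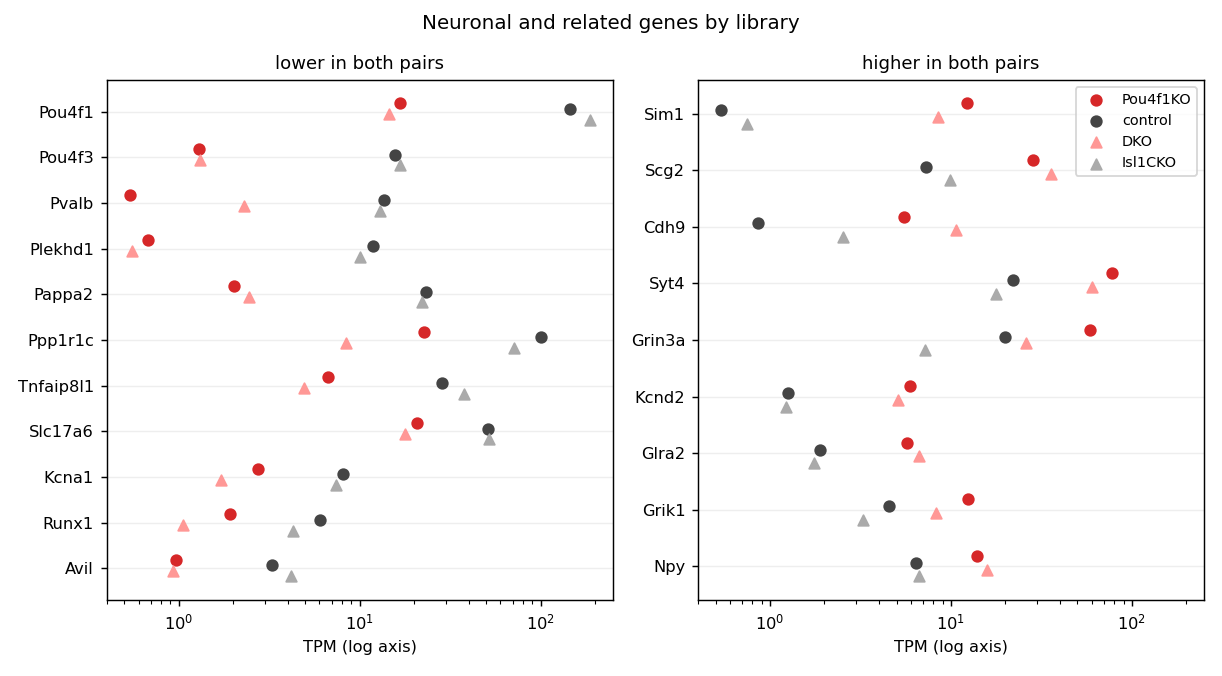
TPM on a log axis for genes that were lower (left) or higher (right) in both pairs, with 1 point per library: circles for Pou4f1KO and control, triangles for DKO and Isl1CKO. Both libraries labelled for Pou4f1 (red, pink) lie to one side of both other libraries (dark and light grey) for each gene (Grin3a as its own row), as for Syt4 at 77.5 and 60.4 TPM against 22.1 and 17.8 TPM. The genes were chosen as past 2-fold in both pairs, so this separation follows in part from the choice.

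Further neuronal genes passed 2-fold in the first pair and did not in the second, a difference between the pairs that was not tested. Gad1, which makes the inhibitory transmitter GABA, stood at 1.88 TPM in Pou4f1KO and 0.190 TPM in control (1.27), and at 0.147 TPM in DKO and 0.345 TPM in Isl1CKO (-0.23). Glra1, another glycine receptor subunit, stood at 2.61 TPM in Pou4f1KO and 0.475 TPM in control (1.29), and at 0.289 TPM in DKO and 0.206 TPM in Isl1CKO (0.10). Insm2, a zinc-finger factor, stood at 12.6 TPM in Pou4f1KO and 4.09 TPM in control (1.42), and at 0.429 TPM in DKO and 0.228 TPM in Isl1CKO (0.22). For all 3 genes the Pou4f1KO library stood above the other libraries. Of 60 axon guidance genes 3 were higher, 2 were lower and the median was 0.14, and in the second pair 1 was lower and the median was -0.01. Robo3, a receptor of commissural axons, stood at 12.2 TPM in Pou4f1KO and 4.12 TPM in control (1.37), and at 1.001 TPM in DKO and 1.43 TPM in Isl1CKO (-0.28). Dcc, the netrin receptor, stood at 7.92 TPM in Pou4f1KO and 2.59 TPM in control (1.32), and at 3.10 TPM in DKO and 4.91 TPM in Isl1CKO (-0.53). Sema3a, a repulsive semaphorin, went the other way, at 4.53 TPM in Pou4f1KO and 10.4 TPM in control (-1.04), and at 5.005 TPM in DKO and 10.2 TPM in Isl1CKO (-0.90).

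Genes shared by neurons in general differed little. Of 40 pan-neuronal genes 2 were higher, Syt4 and Mab21l2, none was lower and 33 had ratios above 0, with a median of 0.33, against 1 higher and a median of 0.04 in the second pair. Dcx, the microtubule protein of migrating neurons, stood at 506 TPM in Pou4f1KO and 334 TPM in control (0.60 and 0.26). Snap25, a membrane-fusion protein of the synapse, stood at 543 TPM in Pou4f1KO and 403 TPM in control (0.43 and 0.15), and Elavl4, a neuronal RNA-binding protein, at 468 TPM in Pou4f1KO and 472 TPM in control (-0.01 and -0.43). The summed level of the list was 28411 TPM in Pou4f1KO and 25018 TPM in control, and 26419 TPM in DKO and 27696 TPM in Isl1CKO. Scaling both libraries to this list moved the median of all genes to -0.29, and on that scale the medians of the otic neurogenesis list (-0.06) and the axon guidance list (-0.18) turned below 0, as did those of the glia, cartilage and muscle, cell death and Notch lists.

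Of the 40 otic and placodal neurogenesis factors 6 were higher and 3, the Pou4f genes, were lower. In the second pair 0 were higher and 4 were lower. The largest ratio among the 6 was that of Rfx4, which also stands on the list of dorsal neural tube progenitor factors. Rfx4 stood at 4.85 TPM in Pou4f1KO and 0.551 TPM in control, and at 0.476 TPM in DKO and 0.312 TPM in Isl1CKO (1.91 and 0.17). Neurod1, the bHLH factor of CVG neuroblasts, stood at 858 TPM in Pou4f1KO and 641 TPM in control (0.42), and at 941 TPM in DKO and 814 TPM in Isl1CKO. Neurog1, the bHLH factor that starts CVG neurogenesis, stood at 17.5 TPM in Pou4f1KO and 16.3 TPM in control (0.10 and -0.57). Gata3, a factor of auditory neurons and otic epithelium, stood at 49.9 TPM in Pou4f1KO and 38.5 TPM in control (0.36), and at 9.43 TPM in DKO and 7.39 TPM in Isl1CKO (0.31). These early factors therefore stayed within 2-fold. The bHLH genes of later neurons were higher: Neurod2 stood at 20.6 TPM in Pou4f1KO and 6.82 TPM in control (1.47) and Neurod6 at 23.8 TPM in Pou4f1KO and 10.2 TPM in control (1.14), with ratios of 0.62 and 0.81 in the second pair.

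Genes on no neuronal, epithelial, neural tube or short RNA list made up 154 of the 260 that were lower in Pou4f1KO, and 56 of these 154 were lower in DKO as well. Plekhd1, a gene for a pleckstrin-homology protein, stood at 0.673 TPM in Pou4f1KO and 11.9 TPM in control, and at 0.549 TPM in DKO and 10.02 TPM in Isl1CKO (-2.94 and -2.83). Ppp1r1c, an inhibitor of protein phosphatase 1, stood at 22.7 TPM in Pou4f1KO and 100 TPM in control, and at 8.42 TPM in DKO and 70.9 TPM in Isl1CKO (-2.10 and -2.93). Tnfaip8l1 stood at 6.66 TPM in Pou4f1KO and 28.6 TPM in control, and at 4.91 TPM in DKO and 37.8 TPM in Isl1CKO (-1.95 and -2.71). In all 3 genes both libraries labelled for Pou4f1 lay below both others, which follows in part from their choice as lower in both pairs. Fam160a1 (-2.12 and -2.44) and Slc4a4, a sodium bicarbonate cotransporter (-2.03 and -1.87), were lower in both pairs as well. Grm2 and Tmem163 were picked out after their values were seen. Grm2, a metabotropic glutamate receptor, stood at 5.53 TPM in Pou4f1KO and 21.1 TPM in control (-1.76), and at 3.22 TPM in DKO and 19.8 TPM in Isl1CKO (-2.30). Tmem163, a vesicular zinc transporter, stood at 6.08 TPM in Pou4f1KO and 21.8 TPM in control (-1.69), and at 4.92 TPM in DKO and 32.2 TPM in Isl1CKO (-2.49).

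The median of the 28 compared genes that regulate cell death was 0.03 in both pairs. Of these genes 1 was lower, beside 1.76% of all genes compared, and none was higher. The gene was Hrk, a BH3-only activator of neuronal apoptosis whose promoter holds the hexamer above, at 3.70 TPM in Pou4f1KO and 9.42 TPM in control (-1.15), and at 3.70 TPM in DKO and 12.0 TPM in Isl1CKO (-1.47). None of 28 proliferation genes passed 2-fold, but 27 had ratios below 0, with a median of -0.27 in the first pair and -0.04 in the second.

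Genes of epithelia were lower as a group. Of 143 compared on 4 lists, 74 were lower in Pou4f1KO and 4 were higher, with a median log2 ratio of -1.07, against 42 lower, 4 higher and a median of -0.55 in the second pair. Of the 74, 41 were lower in DKO as well, which is 97.6% of the 42 that were lower there. Of the 143, 18 reached 1 TPM only in control, so their presence among the compared genes rests on the library in which they are high. Of 50 epithelial junction and keratin genes, 13 of them of that kind, 34 were lower and none was higher, with a median of -1.49. Their summed level was 269 TPM in Pou4f1KO and 921 TPM in control, and 272 TPM in DKO and 585 TPM in Isl1CKO, so the library labelled Isl1CKO also lay below control.

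Single epithelial genes showed this order of libraries. Cldn6, a tight-junction claudin of embryonic epithelia, stood at 17.1 TPM in Pou4f1KO and 115 TPM in control, and at 20.5 TPM in DKO and 68.3 TPM in Isl1CKO (-2.67 and -1.69). Krt8, a keratin of simple epithelia, stood at 5.66 TPM in Pou4f1KO and 34.9 TPM in control, and at 8.58 TPM in DKO and 22.8 TPM in Isl1CKO (-2.43 and -1.31). Epcam had log2 ratios of -2.06 and -1.84, and Cdh1, the epithelial cadherin, of -1.99 and -0.93. Each of the 4 was lowest in the libraries labelled for Pou4f1 and highest in control. Of 37 otic secreted and signalling genes 18 were lower and Aldh1a1 alone was higher, with a median of -0.99. Oc90, the main protein of otoconia, stood at 12.8 TPM in Pou4f1KO and 128 TPM in control, and at 35.0 TPM in DKO and 115 TPM in Isl1CKO (-3.23 and -1.69). Otol1, the otoconial collagen-like protein otolin, stood at 25.5 TPM in Pou4f1KO and 88.4 TPM in control, and at 11.8 TPM in DKO and 35.4 TPM in Isl1CKO (-1.75 and -1.51).

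Of 37 otic transcription factors compared, 17 were lower and Pax8 alone was higher, with a median of -0.56. Lmx1a, a LIM-homeodomain factor of dorsal otic epithelium and roof plate, stood at 6.26 TPM in Pou4f1KO and 36.5 TPM in control, and at 7.97 TPM in DKO and 18.1 TPM in Isl1CKO (-2.37 and -1.09). Hmx3, a homeodomain factor of the vestibular epithelium, stood at 2.79 TPM in Pou4f1KO and 13.4 TPM in control, and at 0.593 TPM in DKO and 8.30 TPM in Isl1CKO (-1.93 and -2.55). Of 19 hair cell and sensory patch genes 5 were lower and 2 were higher, with a median of -0.01. Among the lower ones were Pou4f3 and Espn, an actin-bundling protein of stereocilia, at 1.25 TPM in Pou4f1KO and 8.82 TPM in control (-2.12 and -0.90). The higher ones, Atoh1 and Barhl1, are also factors of the dorsal neural tube. Atoh1 stood at 5.51 TPM in Pou4f1KO and 0.191 TPM in control, and at 0.351 TPM in DKO and 0.413 TPM in Isl1CKO (2.45 and -0.07).

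**Figure D3:**
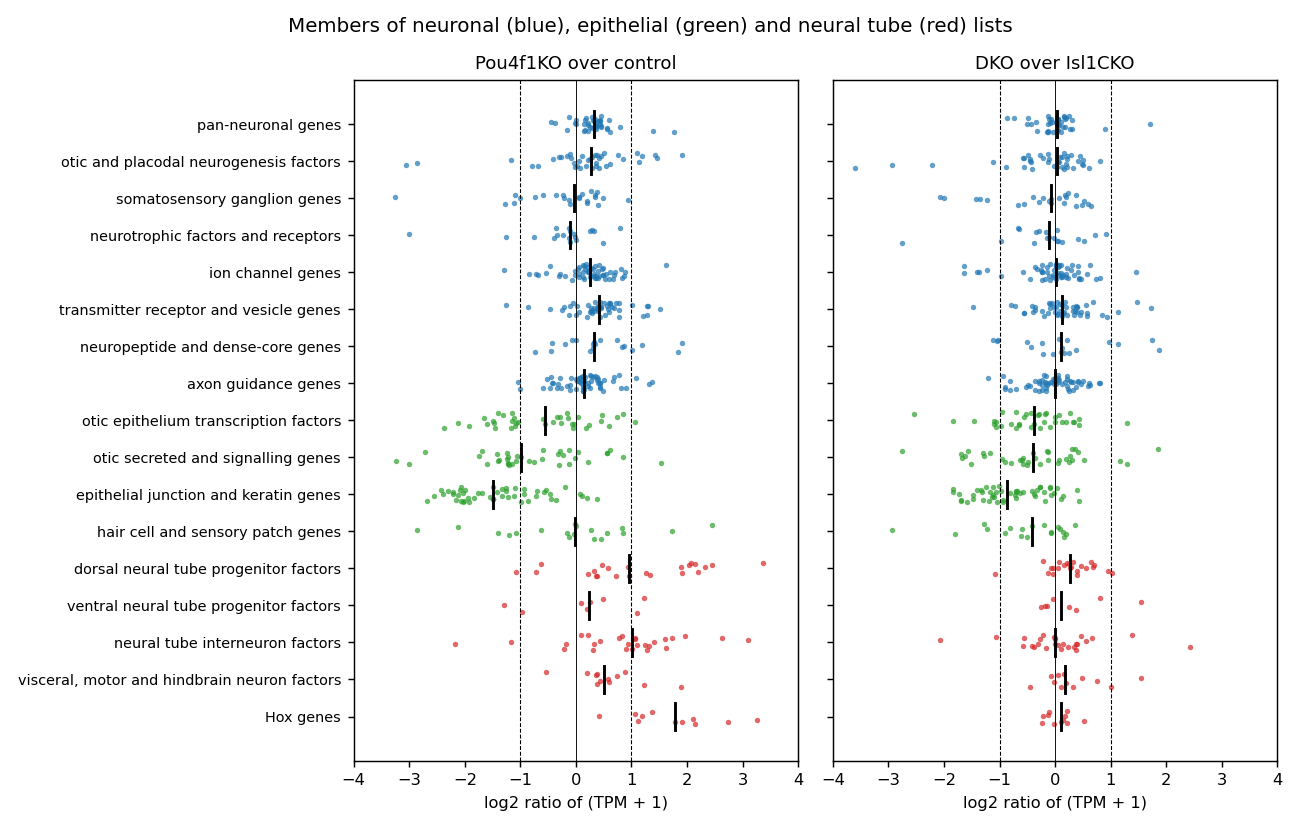
Log2 ratio of (TPM + 1) for each compared member of the neuronal (blue), epithelial (green) and neural tube (red) lists, for Pou4f1KO over control (left) and DKO over Isl1CKO (right), with a black bar at each list's median and dashed lines at 2-fold. The epithelial junction and keratin list has a median of -1.49 on the left and -0.87 on the right, and the Hox list has 1.79 on the left and 0.11 on the right.

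Neural tube genes were higher as a group in the first pair. Of 139 listed genes 78 were compared, and 33 of these reached 1 TPM only in Pou4f1KO, so that their presence among the compared genes rests on the library in which they are high. In Pou4f1KO 37 were higher and 4 were lower, with a median of 0.94. In the second pair 5 passed 2-fold upwards and 3 downwards, the median was 0.14, and the 37 had a median of 0.07 there. Olig3, a bHLH factor of dorsal progenitors, stood at 13.9 TPM in Pou4f1KO and 0.447 TPM in control, and at 0.542 TPM in DKO and 0.799 TPM in Isl1CKO (3.36 and -0.22). Msx3, a homeodomain factor of the dorsal neural tube, stood at 5.78 TPM in Pou4f1KO and 0.363 TPM in control, and at 0.422 TPM in DKO and 0.356 TPM in Isl1CKO (2.32 and 0.07). Pax6, a paired-domain factor of neural progenitors, stood at 5.86 TPM in Pou4f1KO and 0.641 TPM in control, and at 0.206 TPM in DKO and 0.314 TPM in Isl1CKO (2.06 and -0.12). In these genes the Pou4f1KO library stood alone, with the other 3 libraries below 1 TPM.

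Other progenitor factors were higher in the first pair too. Dbx1, a homeodomain factor of intermediate progenitors, stood at 3.56 TPM in Pou4f1KO and 0.0365 TPM in control (2.14 and 0.39). Hes5, a Notch target of progenitors, stood at 21.1 TPM in Pou4f1KO and 4.36 TPM in control (2.04), with 3.09 TPM in DKO and 2.52 TPM in Isl1CKO. Of 26 Notch pathway genes it was the only one that was higher, and the median of that list was 0.03. Of 8 ventral progenitor factors compared, 2 were higher, 1 was lower and 6 had ratios above 0. The summed level over all 17 listed was 55.3 TPM in Pou4f1KO and 76.8 TPM in control. Sulf1 weighs on this sum, at 25.3 TPM in Pou4f1KO and 50.4 TPM in control (-0.97 and 0.81). Shh, the ventral midline signal, was lower at 0.906 TPM in Pou4f1KO and 3.66 TPM in control (-1.29). In the second pair Shh stood at 0.926 TPM in DKO and 0.987 TPM in Isl1CKO (-0.04), so Isl1CKO also lay below control.

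Of 27 interneuron factors of the neural tube compared, 14 were higher and 2 were lower, with a median of 1.02. Sim1, a bHLH-PAS factor of ventral spinal interneurons and hypothalamic neurons, stood at 12.2 TPM in Pou4f1KO and 0.538 TPM in control, and at 8.44 TPM in DKO and 0.746 TPM in Isl1CKO (3.11 and 2.43). Otp, a homeodomain factor of hypothalamic and hindbrain neurons, stood at 5.52 TPM in Pou4f1KO and 0.050 TPM in control, and at 0.306 TPM in DKO and 0.116 TPM in Isl1CKO (2.63 and 0.23). Sim1 was thus high in both libraries labelled for Pou4f1, and Otp in 1 of them. Lmo3, a LIM-only protein, stood at 2.72 TPM in Pou4f1KO and 0.838 TPM in control, and at 7.79 TPM in DKO and 2.38 TPM in Isl1CKO (1.02 and 1.38). Nkx6-1, on the lists of ventral progenitor and of hindbrain neuron factors, stood at 1.56 TPM in Pou4f1KO and 0.0892 TPM in control, and at 2.50 TPM in DKO and 0.203 TPM in Isl1CKO (1.23 and 1.54). Sim1, Lmo3 and Nkx6-1 were the 3 neural tube genes of 78 that were higher in both pairs. Skor2, a corepressor of cerebellar and dorsal spinal neurons, was lower in both, at 0.214 TPM in Pou4f1KO and 4.48 TPM in control, and at 0.192 TPM in DKO and 4.01 TPM in Isl1CKO (-2.17 and -2.07).

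Hox genes, which give neural and mesodermal cells their position along the body axis, were compared gene by gene. Of 39 Hox genes 11 reached 1 TPM in either library, 8 of them only in Pou4f1KO, and 10 were higher. Their summed level over all 39 was 104 TPM in Pou4f1KO and 36.8 TPM in control, and 43.5 TPM in DKO and 37.0 TPM in Isl1CKO. Hoxa2, the most anterior gene expressed in the hindbrain, was the exception, at 21.2 TPM in Pou4f1KO and 15.7 TPM in control, and at 19.2 TPM in DKO and 13.2 TPM in Isl1CKO (0.41 and 0.51). Paralog group 2 was therefore present in every library. Hoxb3 stood at 24.9 TPM in Pou4f1KO and 9.01 TPM in control, and at 8.28 TPM in DKO and 9.19 TPM in Isl1CKO (1.37 and -0.14). Hoxc4 stood at 6.43 TPM in Pou4f1KO and 0.120 TPM in control, and at 0.198 TPM in DKO and 0.0305 TPM in Isl1CKO (2.73 and 0.22). Hoxb4 stood at 4.57 TPM in Pou4f1KO and 0.285 TPM in control, and at 0.622 TPM in DKO and 0.506 TPM in Isl1CKO (2.12 and 0.11). Group 4, which marks the caudal hindbrain and more posterior levels, was thus present in Pou4f1KO and under 1 TPM in the other 3 libraries. The rows of Hoxd3, Hoxd4 and Mir10b overlap, and their sum was 14.2 TPM in Pou4f1KO and 0.303 TPM in control, with 0.556 TPM in DKO and 0.293 TPM in Isl1CKO (3.54 in the first pair). The rows of Hoxa3 to Hoxa6 overlap likewise, with a sum of 8.21 TPM in Pou4f1KO and 0.881 TPM in control (2.29). Hoxb2 stood at 19.6 TPM in Pou4f1KO and 8.50 TPM in control (1.12 and 0.21), Hoxb1 at 1.68 TPM in Pou4f1KO and 0.180 TPM in control (1.18 and -0.12), and Hoxc5 with the overlapping Mir615 at 1.17 TPM in Pou4f1KO and 0.0369 TPM in control (1.06). No Hox gene of a paralog group above 5 reached 1 TPM in Pou4f1KO or control. The visceral and motor neuron factors of the hindbrain had 2 of 12 genes higher, among them Nkx6-1, none lower and a median of 0.51.

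**Figure D4:**
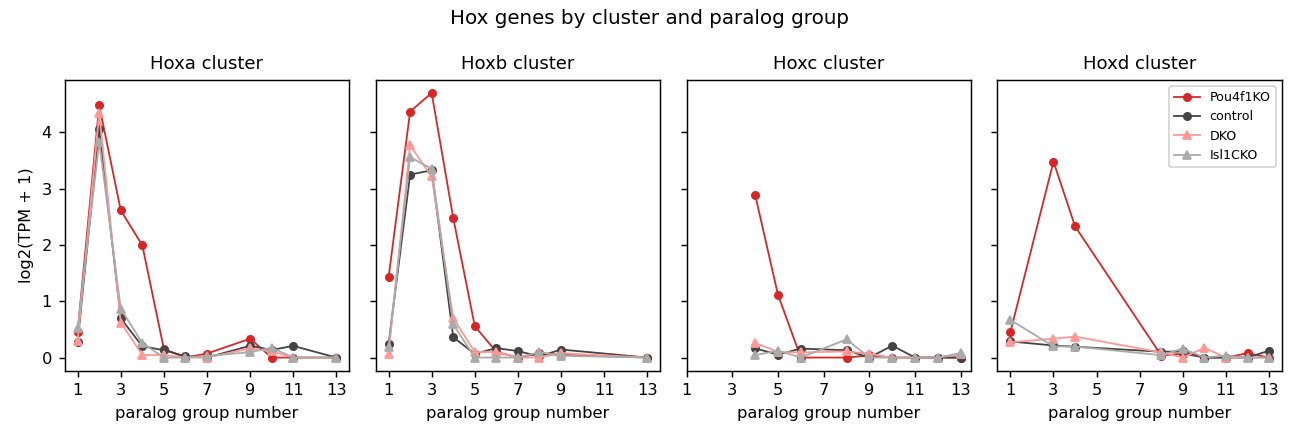
Level of each Hox gene as log2(TPM + 1) against its paralog group number, with 1 panel per cluster and 1 line per library. The Pou4f1KO line stands above the other 3 at groups 3 and 4 of each cluster that has them, where Hoxc4 is at 6.43 TPM against 0.120 TPM in control, and all lines run near 0 above group 5; some neighbouring rows overlap, so levels may be split between them.

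Short non-coding RNA genes were counted apart. Of 367 compared 19 were higher and 18 were lower, with a median of -0.04, beside 0.997% higher and 1.76% lower over all genes compared. Of the 367, 36 reached 1 TPM only in Pou4f1KO and 38 only in control, so their presence rests on the library in which they are high. The class took 0.677% of all TPM in Pou4f1KO and 0.439% in control, with 0.464% in DKO and 0.461% in Isl1CKO. The class as counted includes the ribosomal RNA precursor Rn45s, at 3003 TPM in Pou4f1KO and 674 TPM in control. The class sums were 6766 TPM in Pou4f1KO and 4388 TPM in control. Within them miRNA genes held 2290 TPM in Pou4f1KO and 2218 TPM in control. The snoRNA and scaRNA genes held 1375 TPM in Pou4f1KO and 1480 TPM in control. Of 251 miRNA genes 11 were higher and 13 lower, and of 110 snoRNA and scaRNA genes 4 were higher and 5 lower. Many of these stand inside host genes on the same strand, where reads of host and guest cannot be told apart: Mir6918 had a ratio of 1.54 alone and its sum with the host Nipsnap1 one of 0.05. Mir219a-2, which overlaps no other row, was lower in both pairs, at 1.28 TPM in Pou4f1KO and 5.31 TPM in control, and at 2.24 TPM in DKO and 10.8 TPM in Isl1CKO (-1.47 and -1.86).

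The largest ratio of any short RNA was that of Rpph1, the RNA component of RNase P, which trims the 5′ end of transfer RNA, followed by Rmrp, its relative in the RNase MRP complex that cuts ribosomal RNA precursors. Their sequences are printed as the structured GC-rich transcripts behind these values, as annotated in GENCODE M21 on GRCm38, the first 300 bases of Rpph1 at chr14:50807468-50807767 (minus, 67.1% GC over all 319 bases) and Rmrp whole at chr4:43492788-43493058 (minus, 271 bases, 64.2% GC).
Rpph1: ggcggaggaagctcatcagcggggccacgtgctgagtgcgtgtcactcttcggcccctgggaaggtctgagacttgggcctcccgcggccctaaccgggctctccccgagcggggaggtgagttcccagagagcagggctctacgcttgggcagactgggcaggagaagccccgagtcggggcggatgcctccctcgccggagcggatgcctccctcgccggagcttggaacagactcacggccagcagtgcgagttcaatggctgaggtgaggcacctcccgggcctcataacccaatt
Rmrp: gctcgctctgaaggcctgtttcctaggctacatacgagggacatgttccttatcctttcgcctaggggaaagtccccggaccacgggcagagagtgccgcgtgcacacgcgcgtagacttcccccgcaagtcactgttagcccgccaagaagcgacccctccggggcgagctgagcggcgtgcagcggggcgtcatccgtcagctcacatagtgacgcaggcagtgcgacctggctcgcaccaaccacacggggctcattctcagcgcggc
Rpph1 stood at 45.9 TPM in Pou4f1KO and 2.40 TPM in control, and at 3.99 TPM in DKO and 1.34 TPM in Isl1CKO (3.78 and 1.09). Rmrp stood at 38.5 TPM in Pou4f1KO and 4.96 TPM in control, and at 5.35 TPM in DKO and 1.92 TPM in Isl1CKO (2.73 and 1.12). Scarna2, a guide RNA of Cajal bodies, stood at 10.4 TPM in Pou4f1KO and 0.777 TPM in control, and at 2.77 TPM in DKO and 0.514 TPM in Isl1CKO (2.69 and 1.32). All 3 were past 2-fold in both pairs, with Pou4f1KO above the other 3 libraries. In all 3 genes Isl1CKO also lay below control, and Rmrp in DKO, at 5.35 TPM, was close to control at 4.96 TPM. Rn45s, the ribosomal RNA precursor, stood at 3003 TPM in Pou4f1KO and 674 TPM in control, and at 844 TPM in DKO and 655 TPM in Isl1CKO (2.15 and 0.37). Lars2, a mitochondrial leucyl-tRNA synthetase gene chosen after its values were seen, was likewise highest in Pou4f1KO, at 324 TPM in Pou4f1KO and 99.5 TPM in control, and at 146 TPM in DKO and 102 TPM in Isl1CKO (1.69 and 0.52). The replication-dependent core histone genes, whose transcripts carry no poly(A) tail, were also counted after their values were seen, and 7 of 47 were higher and 2 lower, against 2 higher and 2 lower in the second pair. These counts include H2ac19, which was higher, and H2ac18, which was lower, whose rows overlap and whose sum was 45.8 TPM in Pou4f1KO and 34.9 TPM in control (0.38). Of the 47, 9 reached 1 TPM only in Pou4f1KO and 2 only in control. The presence of these among the compared genes rests on the library in which they are high. Over all genes compared, 0.997% were higher and 1.76% were lower in the first pair. The summed level of the histone genes was 365 TPM in Pou4f1KO and 359 TPM in control, with a median log2 ratio of 0.28. H4c9, an abundant member, stood at 60.2 TPM in Pou4f1KO and 76.4 TPM in control (-0.34). The part of library preparation in these values was not tested.

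**Figure D5:**
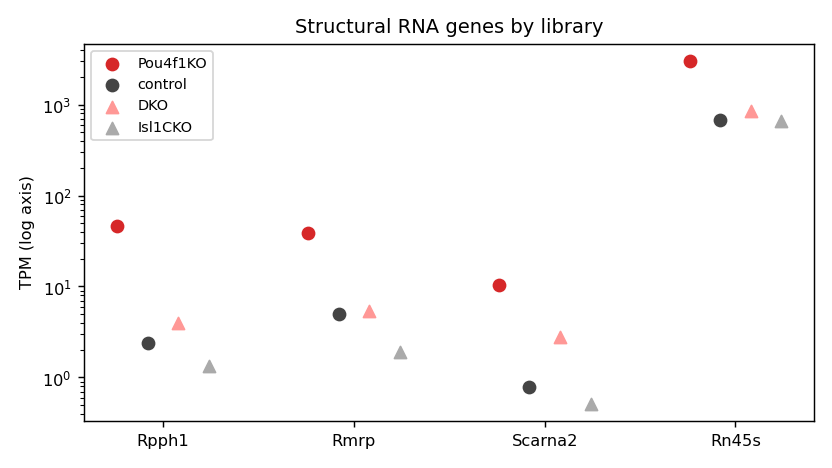
TPM on a log axis of 4 structural RNA genes in each library, with circles for Pou4f1KO and control and triangles for DKO and Isl1CKO. Pou4f1KO is highest for each gene, at 45.9 TPM for Rpph1 and 3003 TPM for Rn45s.

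Markers of the remaining cells were counted in the same way. Of 18 glia and neural crest markers 1, Tfap2b, was higher and none was lower, with a median of 0.24. Of 24 mesenchyme markers Six2 alone was lower, with a median of -0.38. Of 12 cartilage and muscle markers 3 were lower and none was higher, but 8 had ratios above 0 and the median was 0.09. The lowest was Cnmd, the cartilage protein chondromodulin, at 7.68 TPM in Pou4f1KO and 39.1 TPM in control (-2.21). None of 15 endothelial or 14 macrophage markers passed 2-fold, with medians of -0.11 and -0.30. Among 15 erythroid markers the beta-globin rows Hbb-b1 and Hbb-bs moved in contrary directions, but they overlap, and their sum of 70.4 TPM in Pou4f1KO and 69.4 TPM in control had a log2 ratio of 0.02. Of 8 choroid plexus and roof plate markers 2 were higher and 2 lower, with Ttr, the thyroid hormone carrier transthyretin, at 8.22 TPM in Pou4f1KO and 2.36 TPM in control, and at 44.8 TPM in DKO and 7.92 TPM in Isl1CKO (1.46 and 2.36). The second pair differed in markers that the first did not: 7 of 24 mesenchyme markers were higher in DKO than in Isl1CKO, with a median of 0.75, 2 of 15 endothelial markers were, and 4 of 5 sex-linked genes were, while none of the 5 passed 2-fold in the first pair. The 4 were genes of the Y chromosome, such as Eif2s3y at 34.5 TPM in DKO and 11.6 TPM in Isl1CKO. Xist, of the X chromosome, went the other way, at 127 TPM in DKO and 195 TPM in Isl1CKO (-0.62 in this pair). Xist and the Y genes were present in every library. The part of embryo sex in the second pair was not tested.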

How the data were processed

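Total RNA of dissected, frozen ganglia was extracted with Trizol and made into strand-specific libraries, per the labels' protocols. The submitters' processing notes name mm10 and, without versions, order or settings, StringTie, HISAT2, SAMtools, FastQC and Trimmomatic. The authors deposited TPM, a level scaled for gene length and library total, FPKM, which differed from TPM by 1 constant factor per library, and coverage, the mean read depth over a gene, per the file headers.

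TPM was used as deposited. Rows of one symbol were summed, and 24366 of 25239 symbols (96.5%) were found in GENCODE M21, which gave gene types and overlapping rows. The files give no counts, so the gigabases aligned were taken as coverage divided by FPKM, and no count test was run. Differences are log2 ratios of (TPM + 1), and 2-fold is the threshold. With 1 library per genotype no test was made. The calculation was tested on simulated data with 200 planted changes. Python 3.11.15, pandas 2.3.3, numpy 2.4.6 and matplotlib 3.10.9 were used.

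The members and the 30 gene lists were chosen with earlier results of these data known, so they are no independent evidence of direction. The text names Pou4f1, Isl1 and their paralogs, the 15 largest ratios in each direction at 5 TPM or more, 6 short RNAs, the 10 largest in each direction of genes past 2-fold in both pairs, up to 8 members of a list and the compared Hox genes. Genes with overlapping rows on one strand are given as sums. Some genes that the rule or lists would name are not reported here. Alternatives covered the pseudocount, the filter, the scaling and the unit.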

Additional observations from a re-analysis of the deposited data

Results flagged for a closer look

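Of the genes past 2-fold in both pairs, 8 differed in contrary directions, and 3 of these had an ordinary symbol and 5 TPM in a library. The difference between the pairs was not tested. Cyp26c1, which encodes an enzyme that breaks down retinoic acid, stood at 2.16 TPM in Pou4f1KO and 19.7 TPM in control (log2 ratio -2.71), and at 20.8 TPM in DKO and 7.95 TPM in Isl1CKO (1.29). Cyp26a1, an enzyme of the same family, stood at 4.33 TPM in Pou4f1KO and 16.3 TPM in control (-1.70), and at 20.96 TPM in DKO and 5.07 TPM in Isl1CKO (1.85). Cpt1b, a carnitine palmitoyltransferase of muscle mitochondria, stood at 1.53 TPM in Pou4f1KO and 4.98 TPM in control (-1.24), and at 6.16 TPM in DKO and 1.68 TPM in Isl1CKO (1.42). Each was low in both single mutants and high in DKO and control.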

How the results depend on the processing

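No paired analysis was possible because each genotype has 1 library, and none could be left out. With a pseudocount of 0.1, 295 genes were higher and 448 lower, and 38 and 48 of the short RNAs; low genes pass more easily by construction. With a mean of at least 5 TPM, 60 were higher and 132 lower, with 0 and 49 epithelial genes, 10 and 1 neural tube genes and 5 and 2 short RNAs, since fewer genes were compared. On the scale of the pan-neuronal list (factor 1.26), 89 were higher and 406 lower, 13 neuronal genes were higher and 32 short RNAs lower. In FPKM, where the same pseudocount weighs more, 71 were higher and 138 lower, with 12 and 7 neuronal, 21 and 2 neural tube, 6 and 3 short RNA and 2 higher epithelial genes. The median-of-ratios scaling moved no count by over 1.5 times, nor did rescaling without abundant RNAs, which gives no value for short RNAs. Leaving out the filter changed no count, since a gene under 1 TPM in both libraries cannot reach 2-fold. The second pair by its own filter gave 131 higher and 185 lower. List medians changed sign as follows. Without the filter, somatosensory genes had 0.047 and hair cell genes 0.011. At a mean of 5 TPM the medians were 0.13 for somatosensory genes, -0.44 for ventral neural tube, -0.29 for cartilage and muscle and -0.46 for choroid plexus and roof plate. On the pan-neuronal scale they were -0.063 for otic neurogenesis, -0.18 for axon guidance, -0.079 for glia, -0.11 for cartilage and muscle, -0.26 for cell death and -0.30 for Notch genes. In FPKM they were -0.013 for cell death and -0.010 for Notch genes. The cause was not tested. Of the genes named by the rule, Angpt1 (0.99), Glra2 (0.93), Hoxb1 (0.98), Hoxb2 (0.80) and Hoxc5 (0.89) fell under 2-fold on the pan-neuronal scale, where Isl2 reached -1.13. In FPKM Pou4f2 (-0.70), Glra2 (0.83), Hoxa4 (0.95), Hoxb1 (0.57), Hoxb2 (0.95) and Hoxc5 (0.47) did so.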

Other observations

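Genes on none of the lists were also higher in both pairs, and those given here were chosen after their values were seen. C1ql3, a secreted synaptic organiser, stood at 123 TPM in Pou4f1KO and 53.9 TPM in control, and at 105 TPM in DKO and 46.6 TPM in Isl1CKO (log2 ratios 1.18 and 1.15). Cbln2, a secreted protein that links neurexins to glutamate receptors, stood at 10.8 TPM in Pou4f1KO and 3.36 TPM in control, and at 9.83 TPM in DKO and 3.95 TPM in Isl1CKO (1.43 and 1.13). Both synaptic organisers were higher in each library labelled for Pou4f1 than in both others. Cdh9, a classical cadherin named by the rule, stood at 5.49 TPM in Pou4f1KO and 0.853 TPM in control, and at 10.7 TPM in DKO and 2.55 TPM in Isl1CKO (1.81 and 1.72), and its relative Cdh10 at 11.4 TPM in Pou4f1KO and 3.85 TPM in control, and at 15.1 TPM in DKO and 6.98 TPM in Isl1CKO (1.35 and 1.01). Bmp5, a bone morphogenetic protein, stood at 23.2 TPM in Pou4f1KO and 9.63 TPM in control, and at 24.5 TPM in DKO and 11.4 TPM in Isl1CKO (1.19 and 1.04). Among genes that were lower in both pairs, Eya4, a cofactor of placodal factors, stood at 12.8 TPM in Pou4f1KO and 38.4 TPM in control, and at 11.1 TPM in DKO and 25.7 TPM in Isl1CKO (-1.52 and -1.15).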
